A study of Mus musculus and Canis lupus familiaris and Equus caballus with 9 samples.

Results

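The genes described here are the cadherins and protocadherins of the mouse, taken as every protein-coding gene of the RefSeq GRCm38 gene table whose symbol is Cdh followed by a number or begins with Pcdh. They number 92 of 21900 protein-coding genes: 23 Cdh genes, 57 clustered protocadherins of the Pcdha, Pcdhb and Pcdhg groups, and 12 other Pcdh genes. The study mapped the binding of NRSF (also called REST) by chromatin immunoprecipitation and sequencing in 3 cell lines, and the genes were tied to its mouse peak list. The mouse samples were 2 NRSF immunoprecipitations and 1 input DNA sample from RAW264.7, a BALB/c macrophage line at passages 13 to 15, with no treatment named in the labels. The immunoprecipitations used a monoclonal NRSF antibody, and the input used no antibody. A peak was assigned to every gene whose annotated span, extended by 10 kb at both ends, contained the peak's midpoint.

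Cadherins are calcium-dependent adhesion proteins that hold cells of the same kind together. Classical cadherins link to actin through catenins, and many of them are expressed in particular parts of the brain. Protocadherins are the largest branch of the superfamily. The clustered ones give single neurons distinct surface identities, since each Pcdha or Pcdhg transcript joins its own variable first exon to constant exons shared by the whole cluster, whereas Pcdhb genes have no constant exons. NRSF represses transcription through a long bipartite DNA element, and its best-known targets are neuronal genes in cells that are not neurons, such as macrophages.

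The mouse list held 2357 peaks, each 400 bp wide, with positions only. It gives no score, no fold enrichment and no value per replicate, so no replicate error or depth stands behind a single peak. All intervals cover counting error only. The list carries no expression values, so the macrophage label could not be checked against marker genes, and whether any cadherin gene was expressed is not known from it.

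Of the 92 genes, 22 had a peak (23.9%), compared with 1640 of the 21900 protein-coding genes (7.49%). These 22 genes lay at 17 distinct peaks, since 13 of them were Pcdha genes with overlapping spans that shared 1 peak. Outside the clusters, 9 of 35 genes had a peak (25.7%, exact Clopper-Pearson 95% interval 12.5 to 43.3%), and they accounted for 16 of the 17 peaks. By name they were Cdh4, Cdh7, Cdh11, Cdh13, Cdh18, Cdh22, Cdh23, Pcdh1 and Pcdh15. The Cdh genes had a peak at 7 of 23 members (30.4%) and the Pcdh genes outside the clusters at 2 of 12 (16.7%).

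Most of the peaks lay inside long genes, and 4 of the 17 lay within 10 kb of a member's end. Of the 17 peaks 14 had their midpoint inside a member's span (82.4%), compared with 76.3% of the peaks at all protein-coding genes. At genes of 100 kb or more the share was 87.5% both for members and for all protein-coding genes. The median distance from the nearest end of a member was 49.2 kb (range 1.94 to 373 kb). It was 6.05 kb for all protein-coding genes and 48.1 kb for those of 100 kb or more. None of the 17 lay within 1 kb of a member's end. Of the 1521 peaks at protein-coding genes of any kind, 319 (21.0%) lay within 1 kb of an end of such a gene. At protein-coding genes of 100 kb or more, the length of most members with a peak, it was 42 of 594 peaks (7.07%). When only the 10 kb around either annotated gene end counted, 3 of the 92 genes had a peak (3.26%), compared with 5.63% of all protein-coding genes. Outside the clusters it was 2 of 35 (5.71%), Cdh22 and Pcdh1. Near gene ends the family therefore stood close to the background, and its higher share came from the inside of gene spans. With no reach beyond the span, 21 of 92 genes (22.8%) still had a peak, compared with 4.43% of all protein-coding genes. Of these 21 genes, 13 were Pcdha genes that share 1 peak. Outside the clusters it was 8 of 35 (22.9%). The 4.43% covers genes of all lengths.

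Span length moved with this result. The median span was 123 kb for the 35 genes outside the clusters and 17.1 kb for all protein-coding genes, and a longer gene meets more peaks. Among genes of 100 kb or more, 8 of the 19 members outside the clusters had a peak (42.1%), compared with 18.1% of all such protein-coding genes. Among shorter genes it was 1 of 16 members (6.25%), compared with 6.17%. By class, 3 of 9 members of 100 to 300 kb had a peak against 14.6% of all protein-coding genes of that length, 3 of 7 of 300 to 1000 kb against 28.9%, and 2 of 3 over 1000 kb against 37.3%. Each of these classes holds at most 9 members, so a single gene moves its share by much.

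**Figure D1:**
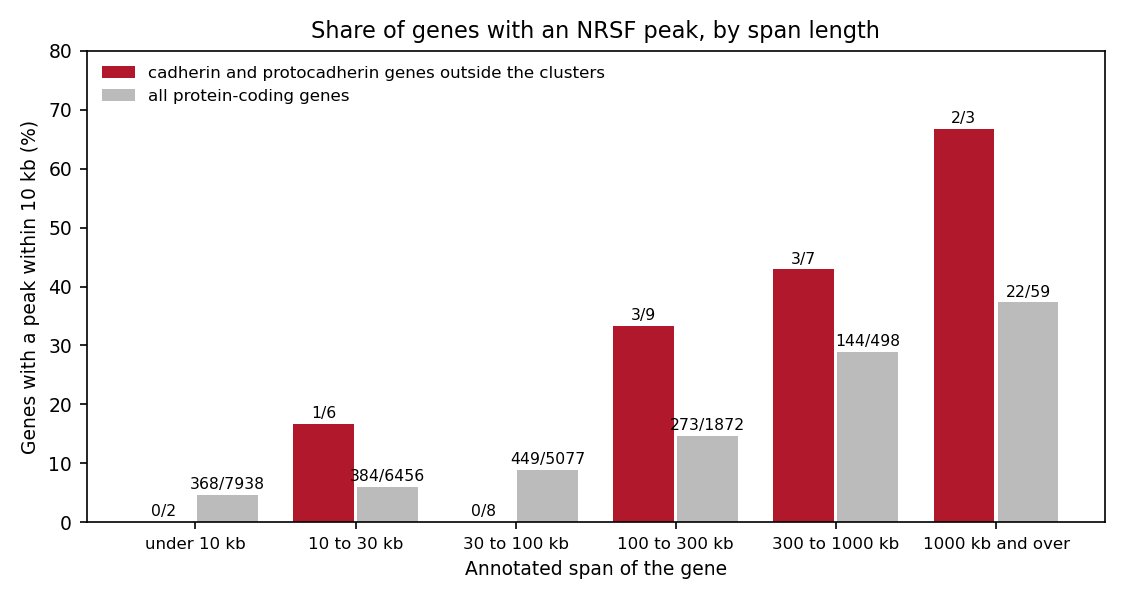
Percentage of genes with an NRSF peak inside the span or within 10 kb, by class of annotated span, for the cadherin and protocadherin genes outside the clusters (red, left of each pair) and for all protein-coding genes (grey). Numbers above the bars are genes with a peak over genes in the class; the share rises with span in all protein-coding genes, up to 37.3% over 1000 kb, and 8 of the 9 members with a peak are 100 kb or longer.

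Peaks per length of sequence gave a smaller difference. Members of 100 kb or more outside the clusters held 13 peaks in 9.44 Mb of merged span, or 1.38 per Mb (exact Poisson 95% interval 0.733 to 2.35), compared with 0.848 per Mb for all protein-coding genes of that length (0.777 to 0.924). The intervals overlapped. Distances to ends were taken over all members of 100 kb or more, Pcdha genes included. Their peaks lay at a median of 58.2 kb from the nearest end, compared with 48.1 kb for all protein-coding genes of 100 kb or more. Within 10 kb of an end stood 2 of the 16 peaks of these members (12.5%), compared with 28.1% of the peaks of all such genes. Within 5 kb it was 1 of 16 (6.25%), compared with 19.0%. Pcdhac1, at 97.5 kb, fell below the length limit, so the Pcdha peak was measured from Pcdha12, at 71.8 kb. Its distance from the end of Pcdhac1 was 1.9 kb. Measured from there, this peak would count within both distances and the median would be lower.

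Type II classical cadherins, many of which mark neuron groups in the brain, had a peak at 4 of 13 members (30.8%, exact 95% interval 9.09 to 61.4%) and 7 distinct peaks, compared with 7.49% of all protein-coding genes and 14.6% of those of 100 to 300 kb. Their median span was 153 kb. Cdh22, a cadherin of pituitary and brain, had the most peaks of the family at the 10 kb reach, with 4 at a span of 123.4 kb. Inside the span alone it had 2, against 3 each in Cdh4 and Cdh13. The first peak of Cdh22 lay 8.4 kb beyond its lower end, on chromosome 2 at 165102915 to 165103315 (mm10). A pair at 165159045 to 165159445 and 165160475 to 165160875 lay inside the gene with midpoints 1430 bp apart, and the fourth, at 165239535 to 165239935, lay outside the upper end. RefSeq places Cdh22 on the minus strand, so that the fourth peak lay upstream, 4998 bp before the listed transcription start. Among all protein-coding genes 22 had 4 or more peaks (0.1%), and 7 of the 1872 with a span of 100 to 300 kb did (0.374%).

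Cdh7, a type II cadherin of neural tissue, had a peak on chromosome 1 at 110016495 to 110016895, inside the gene and 33.0 kb after the closest of its listed starts. Cdh11, known from mesenchymal cells and osteoblasts, had a peak on chromosome 8 at 102682125 to 102682525, 50.2 kb inside its lower end. Cdh18, a type II cadherin of the central nervous system, had a peak at 98.5% of the way along its 928.6 kb span, 13.7 kb inside the upper end. On the plus strand this is the far end of the gene, 427.3 kb after the listed start, on chromosome 15 at 23463585 to 23463985. The peaks of these 3 genes had no other protein-coding gene within 10 kb.

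The 9 type II cadherins without a peak were Cdh5, Cdh6, Cdh8, Cdh9, Cdh10, Cdh12, Cdh19, Cdh20 and Cdh24. Their closest peaks lay 385 to 8350 kb from the span, with a median of 1870 kb. The longest of them, Cdh12, spans 1149.5 kb and had its closest peak 1865.4 kb away. Cdh6, Cdh9, Cdh10, Cdh12 and Cdh18 are neighbours on chromosome 15, in a stretch of 10.4 Mb from 13028699 to 23477491 that holds 7 protein-coding genes in all. This stretch held 1 peak, the one in Cdh18, or 0.0957 peaks per Mb, compared with 0.866 per Mb over all chromosomes. In the stretch of chromosome 8 that runs from Cdh8 to Cdh1, with 6 members among 86 protein-coding genes, there were 5 peaks in 7.65 Mb (0.654 per Mb), of which 1 lay at a member, Cdh11. These stretches were chosen after their values were seen.

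Type I classical cadherins had a peak at 1 of 5 members (20.0%, exact 95% interval 0.505 to 71.6%, against 7.49% of all protein-coding genes). Of all protein-coding genes of 300 to 1000 kb, the span class of the member with a peak, 28.9% had one. That member was Cdh4, or R-cadherin, a cadherin of retina and brain, with 3 peaks inside its 457.0 kb span on chromosome 2. They stood at 179476615 to 179477015, 179615920 to 179616320 and 179698205 to 179698605, which is 34.4, 173.7 and 256.0 kb from the lower end. Cdh1 (E-cadherin of epithelia), Cdh2 (N-cadherin of neurons, heart and mesenchyme), Cdh3 (P-cadherin) and Cdh15 (M-cadherin of muscle) had none within reach. Their closest peaks lay 265.4, 755.6, 172.9 and 465.5 kb from their spans.

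Among the other cadherins, Cdh13 and Cdh23 had peaks, and Cdh16, Cdh17 and Cdh26 had none. Cdh13 encodes T-cadherin, which is held in the membrane by a lipid anchor and lacks the cytoplasmic part that binds catenins. It had 3 peaks in its 1184.9 kb span on chromosome 8, at 118951775 to 118952175, 119164065 to 119164465 and 119258625 to 119259025. All 3 lay in the upper part of the gene, at 68.5, 86.4 and 94.4% of the span counted from its lower end. With Cdh4 and Cdh22, Cdh13 made 3 members with 3 or more peaks, a number that 54 protein-coding genes reached (0.247%). In genes of 300 to 1000 kb the share was 3.21%, and in longer ones 8.47%, so for Cdh4 and Cdh13 the background in genes of their length was higher.

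**Figure D2:**
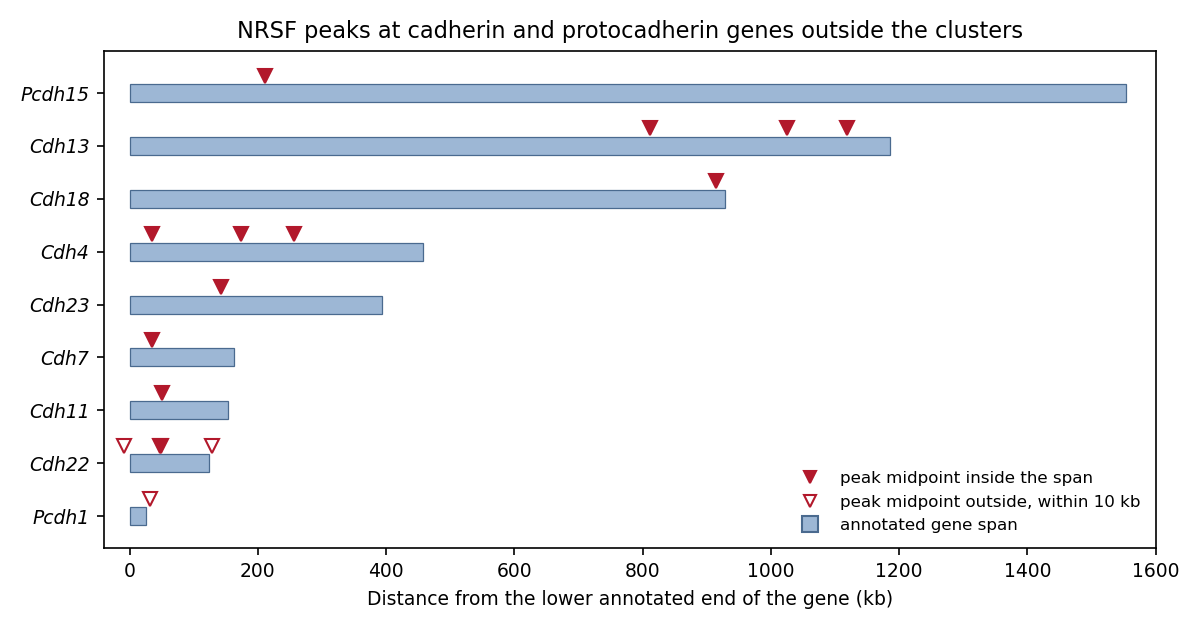
Annotated spans (blue bars, in kb from the lower end of each gene, to scale) of the 9 genes outside the clusters with an NRSF peak, in order of length, with peak midpoints inside the span (filled triangles) or outside it within 10 kb (open triangles). Cdh22, Cdh4 and Cdh13 have 4, 3 and 3 peaks (the 2 inside Cdh22 are 1430 bp apart and overlap in the drawing), and the peak of Cdh18 stands near its upper end.

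Cdh23 and Pcdh15 encode the partners of the tip link, the filament that opens the transduction channel of inner-ear hair cells, and both lie on chromosome 10. Each had 1 peak deep inside its span. Both are long genes, of 393.8 and 1553.6 kb, in classes where 28.9 and 37.3% of all protein-coding genes had a peak. The Cdh23 peak, at 60445170 to 60445570, lay 251.1 kb after the listed start. The nearest gene end to it was that of Vsir, which encodes an immune checkpoint receptor, at 15.1 kb. The Pcdh15 peak, at 73306585 to 73306985, lay 210.5 kb from the lower end of a 1553.6 kb span, the longest of the family, and 515.1 kb before the 1 start listed for the gene on the plus strand.

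None of the 25 promoter windows that RefSeq lists for 22 of the 92 genes held a peak midpoint, and 69 of all 32851 promoters did (0.21%). At that share 25 windows would seldom hold a peak, so the absence tells little. No window was listed for Cdh4, Cdh11, Cdh13 and Pcdh1, which had peaks, nor for any clustered gene. A window runs from 250 bases before a start to 50 bases after it. The promoters of Cdh22 and of the tip-link pair are shown (RefSeq, GRCm38.p6, 5′ to 3′ on the gene's strand). Among the 22 genes with a listed start, that of Cdh22 was the closest to a peak. Capitals mark the 14-base window closest to the core of the NRSF element, searched on both strands as AGCACCNNGGACAG, where N is any base and 12 letters are fixed. The windows shown lie at chr2:165234688-165234987 (minus strand), chr10:60696441-60696740 (minus strand) and chr10:73821617-73821916 (plus strand).
Cdh22: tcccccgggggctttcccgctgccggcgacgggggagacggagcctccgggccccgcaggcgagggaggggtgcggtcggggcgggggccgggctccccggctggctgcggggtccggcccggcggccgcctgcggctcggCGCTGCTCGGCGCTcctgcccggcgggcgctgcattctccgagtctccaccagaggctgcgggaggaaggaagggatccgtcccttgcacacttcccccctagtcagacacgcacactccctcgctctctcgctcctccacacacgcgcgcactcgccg
Cdh23: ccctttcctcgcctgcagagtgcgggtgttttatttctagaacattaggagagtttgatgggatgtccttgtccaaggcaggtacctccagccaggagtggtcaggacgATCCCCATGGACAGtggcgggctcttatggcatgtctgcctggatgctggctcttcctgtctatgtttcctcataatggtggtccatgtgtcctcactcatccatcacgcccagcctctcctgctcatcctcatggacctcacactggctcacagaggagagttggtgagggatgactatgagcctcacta
Pcdh15: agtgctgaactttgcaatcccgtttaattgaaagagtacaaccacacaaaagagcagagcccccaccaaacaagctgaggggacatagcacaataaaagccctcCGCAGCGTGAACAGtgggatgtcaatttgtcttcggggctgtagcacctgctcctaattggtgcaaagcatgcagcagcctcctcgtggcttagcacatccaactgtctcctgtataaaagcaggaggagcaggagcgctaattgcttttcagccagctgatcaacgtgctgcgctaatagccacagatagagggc
The marked window differs from the core at 4 of 12 letters in Cdh22, where it is read on the opposite strand and is the first of 2 such windows, at 2 in Cdh23 and at 3 in Pcdh15, where it is the first of 3.

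No member's promoter held the core exactly, and 17 of all 32851 promoters did (0.0517%). With up to 2 letters different, 1 of the 25 did, that of Cdh23, compared with 4.46% of all promoters. Within the 69 promoters with a peak midpoint, 10 held the core exactly (14.5%) and 32 with up to 2 differences (46.4%). The left block alone, AGCACC, was in 6 of the 25 member promoters and in 16.2% of all, and the right block, GGACAG, in 4 and in 22.2%. These are matches of letters in a short window. They say nothing of the peaks themselves, which lay outside these windows and whose sequence was not analysed here.

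The clustered protocadherins lie side by side on chromosome 18 in 911.6 kb. The Pcdha genes have staggered lower ends, from 36930285 for Pcdha1 to 37143678 for Pcdhac2, and upper ends within 1.24 kb of each other. A single peak, at 37091880 to 37092280, lay inside the spans of 13 of the 14 Pcdha genes. Its midpoint was 1944 bp above the lower end of Pcdhac1, which encodes the first of the C-type isoforms at the end of the cluster. The next lower ends were 71.8 kb below it, for Pcdha12, and 51.6 kb above it, for Pcdhac2. The count of 13 genes thus rests on 1 peak, and only Pcdhac1 had an end within 10 kb of it. The spans of Gm37013, Gm38666 and Gm38667, annotated as protein-coding genes in the same place, also covered it.

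Neither of the other clusters had a peak. The 22 Pcdhb genes, with spans of 2.34 to 5.27 kb, and the 21 Pcdhg genes, with spans of 22.3 to 180 kb, had their closest peaks 46.7 to 300 kb and 114 kb away. Of all protein-coding genes under 10 kb, 4.64% had a peak. The 21 Pcdhg spans overlap within 1 stretch of 180.1 kb, so their absences are not separate counts. Of all protein-coding genes of 100 to 300 kb, 14.6% had a peak. At these shares the absences tell little. A second peak stood between the alpha and beta clusters, on chromosome 18 at 37218130 to 37218530. It lay 29.4 to 30.7 kb above the upper ends of the Pcdha genes and 46.7 kb below the lower end of Pcdhb1, beyond the 10 kb reach of every member. The spans of Gm37013, Gm38666 and Gm38667 covered this peak too, so it lay between the named clusters but not outside every annotated gene. An enhancer of the Pcdha genes named HS5-1 is known downstream of the alpha constant exons, but its coordinates were not in the sources used here, so the peak was not tied to it. Between the 2 peaks lay 126.2 kb.

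**Figure D3:**
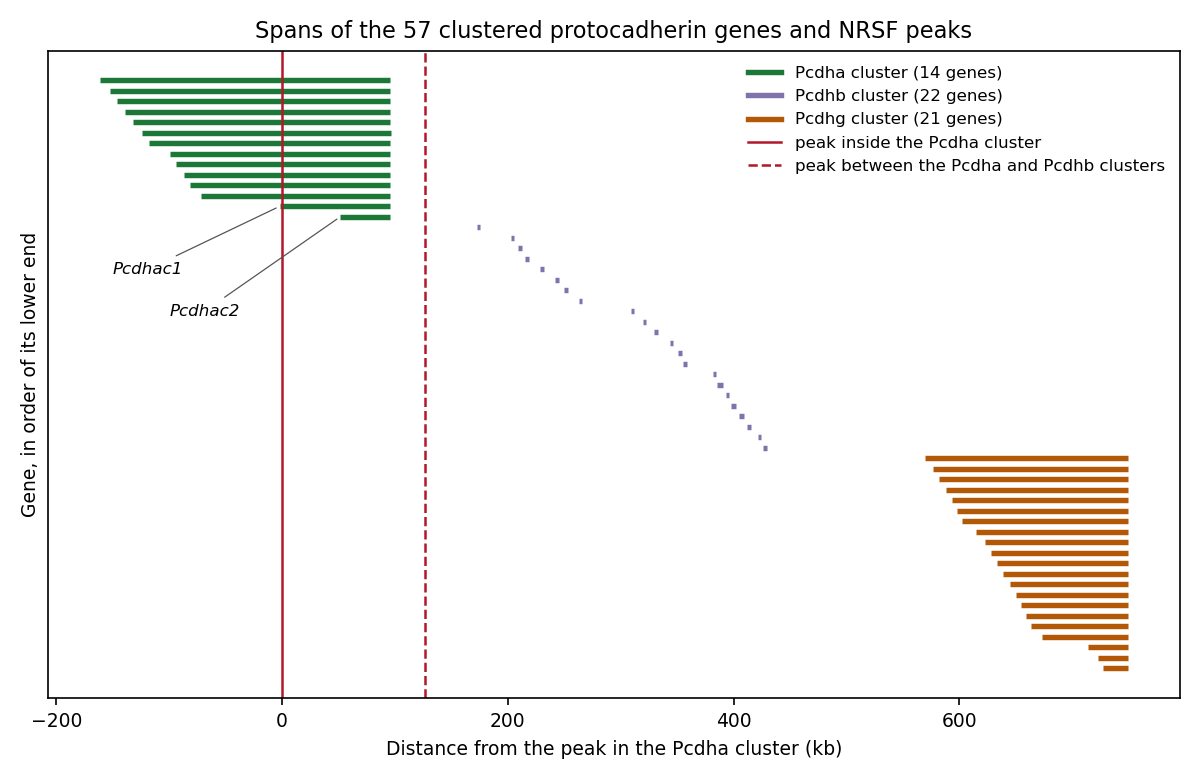
Spans of the 57 clustered protocadherin genes on chromosome 18, 1 horizontal line for each gene in order of its lower end, in kb from the midpoint of the peak inside the Pcdha cluster. That peak (solid vertical line) crosses 13 of the 14 Pcdha spans, 1944 bp above the lower end of Pcdhac1; the second peak (dashed) lies between the alpha and beta clusters, and no peak crosses a Pcdhb or Pcdhg span.

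The non-clustered protocadherins had a peak at 2 of 12 members with Pcdh15 counted among them (16.7%, against 7.49% of all protein-coding genes). The exact 95% interval was 2.09 to 48.4%. Pcdh15, at 1553.6 kb, is in a span class where 37.3% of all protein-coding genes had a peak. Pcdh1, at 26.1 kb, is in a class where 5.95% did. Most non-clustered protocadherins are grouped as delta1 or delta2 by their cytoplasmic motifs and are expressed in distinct sets of neurons. Of the delta1 genes, Pcdh1 had a peak on chromosome 18 at 38216965 to 38217365, 5117 bp beyond its upper end and inside the span of the long non-coding RNA gene 2010320O07Rik, which runs from 38212112 to 38229163. Pcdh7, Pcdh9 and Pcdh11x had none. They span 417.1, 879.1 and 620.4 kb, and their closest peaks lay 749 to 12400 kb away. None of the 5 delta2 genes, Pcdh8, Pcdh10, Pcdh17, Pcdh18 and Pcdh19, had a peak, with closest peaks 284 to 10200 kb from the span. The remaining protocadherins were Pcdh15, described above, Pcdh12, known from endothelium, and Pcdh20, of which the last 2 had none. These absences hold for the 10 kb reach. When each peak went to the protein-coding gene with the nearest end at any distance, 6 of the 12 received one, compared with 8.5% of all protein-coding genes. This rule has no distance limit, and the shares were not matched for the spacing between genes. The 4 added in this way were Pcdh9, Pcdh17, Pcdh18 and Pcdh20, with closest ends 749.2, 1708.4, 284.5 and 174.0 kb from the peak.

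At the reach of 10 kb, the members whose only peak lay outside the span came down to Pcdh1, at 5.1 kb. The closest members beyond the reach were Pcdhac2 at 30.7 kb, Pcdhb1 at 46.7 kb and Pcdh12 at 49.9 kb. No gene's count as having a peak thus turned on a distance close to 10 kb. The number of peaks at Cdh22 did include 1 that lay 8.4 kb outside its span. Over the 70 genes without a peak, the median distance to the closest one was 188 kb.

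**Figure D4:**
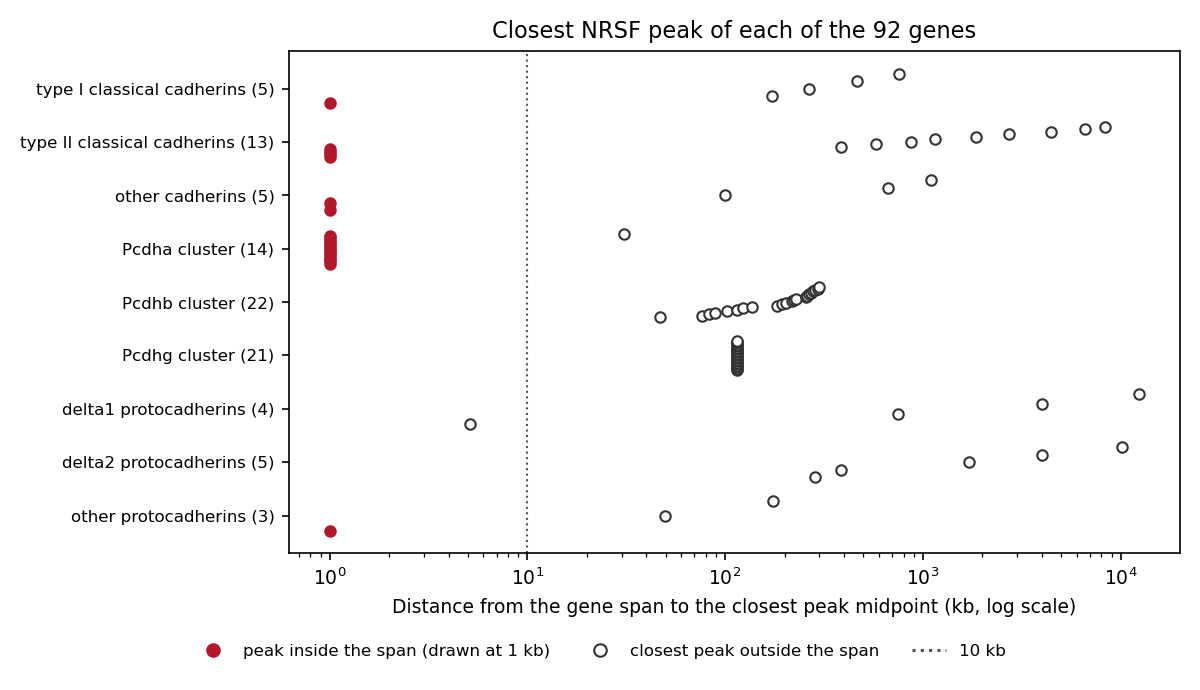
Distance in kb, on a log scale, from the span of each of the 92 genes to the closest NRSF peak midpoint, by subfamily with the number of genes in brackets; filled points are genes with a peak inside the span, drawn at 1 kb, and the dotted line marks 10 kb. Pcdh1 at 5.1 kb is the only open point left of the line, and the next is Pcdhac2 at 30.7 kb.

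Of 39 further genes of cadherin adhesion, on lists drawn up with earlier results of these data known, 5 had a peak (12.8%), compared with 7.49% of all protein-coding genes. Among 12 catenins and plaque proteins, which tie cadherins to the cytoskeleton, 2 had peaks. Ctnnd2, the delta-catenin of neurons, had 4 peaks in 856.8 kb, and Ctnna3, an alpha-catenin known from heart muscle, had 3 in 1573.6 kb. The catenins of most cells, Ctnnb1, Ctnna1 and Ctnnd1, had none, nor did any of 9 desmosomal cadherins. Of 9 Fat, Dachsous and Celsr cadherins only Celsr3 had a peak. It acts in axon tract formation, and its peak on chromosome 9 at 108826885 to 108827285 lay 1040 bp after the listed start, closer than any peak lay to a listed start of a member. Of 9 calsyntenins and cadherin-related genes, Cdhr3 had a peak 8.0 kb and Cdhr1, a photoreceptor cadherin, a peak 9.1 kb from a gene end.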

How the data were processed

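NRSF ChIP-seq peaks of mouse RAW264.7 cells were tied to genes. The authors deposited 1 mouse list of positions (chromosome, start, end) with no other value, which the labels tie to both immunoprecipitations. Per the submitters' processing notes, Bowtie 0.12.8 and MACS 1.4.2 were used and the mouse build was GRCm38 (mm10). The peak threshold, the joining of replicates and whether positions count from 0 or 1 are not stated in the labels or the file, which leaves 1 base of uncertainty. The depth is unknown. The lists of other species were not used, since no gene table of their builds was at hand.

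Gene spans came from RefSeq GRCm38.p6, and starts, strands and promoter sequences from its promoter table, which covers 22 of the 92 genes. No genome sequence was used. Members and gene lists were chosen with earlier results of these data known, so no test was run: counts stand beside the same count over all protein-coding genes. Outside the clusters every member with a peak was named. The 13 Pcdha genes with a peak were counted together at the 1 peak they share. Shares carry exact (Clopper-Pearson) and densities exact Poisson 95% intervals. The counting was tested on simulated data. Python 3.11.15, numpy 2.4.6, pandas 2.3.3, scipy 1.17.1 and matplotlib 3.10.9 were used.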

Additional observations from a re-analysis of the deposited data

How the results depend on the processing

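Counting only the 10 kb around gene ends left 3 of the 22 genes with a peak, 2 of the 9 outside the clusters, 4 distinct peaks and 3 of the subfamilies, since the inside of long genes no longer counted. When each peak went only to the nearest gene end at any distance, 15 genes had a peak, 13 of the 35 outside the clusters, at 25 distinct peaks. The Pcdha count was 2 in place of 13 and that of the delta2 genes 2 in place of 0. Those of the delta1 genes and other protocadherins were 2 each in place of 1. The count of other cadherins stayed at 2, but its genes changed. Cdh23 lost its only peak to Vsir, and Cdh26 gained peaks at 247.9 and 379.9 kb. Leaving out the clustered genes, which share 1 peak, left 9 genes. With no reach, 22.8% of the members and 4.43% of all protein-coding genes had a peak. With a reach of 50 kb it was 27.2% of the members (28.6% outside the clusters) and 16.2% of all. This contrast was smaller than that at 10 kb, 23.9% against 7.49%. With reaches of 0, 1 and 5 kb the delta1 count was 0 in place of 1, since Pcdh1 no longer counted. At 50 kb the Pcdhb count was 1 in place of 0 and that of other protocadherins 2 in place of 1. The median distance of peaks was 104 kb from a listed start, over the 8 peaks of members with one. The promoter search gave 0 member promoters for the exact core, 1 with up to 2 letters different, 6 for the left block and 4 for the right. Of 119 alternative values, 94 stayed within 1.5 times the value reported. They include all those with any overlap of the 400 bp peak. They also include all those without the 5 bins of 1 Mb that hold 10 or more peaks, in which no member's peak lay. Counts of 0 that stayed at 0, such as those of the Pcdhg genes, are among the 94. With no peak scores, a stricter threshold could not be tried, and with 1 list for 2 replicates neither could be left out. No paired analysis was possible because the list holds no value per replicate.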
